A study of Mus musculus with 5 samples.

Results

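The 10 genes described here, Fos, Fosb, Fosl1, Jun, Junb, Egr1, Nr4a1, Nr4a2, Crem and Atf3, encode transcription factors of the immediate-early response. They were chosen by name, as members of the Fos, Jun, Egr, Nr4a, Crem and Atf families, from 27729 genes in the deposited tables. The choice used no threshold on a measured value, but it was made with earlier results of these data known. All 10 had 10 or more expected counts in at least 1 library, the level at which 13346 genes were kept.

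Immediate-early genes are transcribed soon after a cell meets serum, a growth factor, a depolarization or a stress, without new protein synthesis, because the factors that switch them on (SRF with its ternary complex factors, and CREB) already sit at their promoters. Fos and Jun proteins pair to form AP-1, Egr1 binds GC-rich sites, Nr4a1 and Nr4a2 are orphan nuclear receptors, Crem makes activators and repressors of the cAMP response, and Atf3 is a stress-inducible partner of the Jun proteins that often represses its targets. Fibroblasts induce these genes when serum is added, and neurons induce them when they fire.

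MEFs, fibroblasts grown from the connective tissue of ICR mouse embryos, were sequenced in growth medium with fetal bovine serum (day 0) and on days 2, 5, 10 and 14 after the change to 5C medium. This serum-free medium adds vitamin C, 2-mercaptoethanol, N2 supplement and the factors bFGF and LIF to DMEM/F12, and it turns part of the fibroblasts into neuron-like cells that are not yet fully functional neurons. There was 1 library per time point, so differences between days could not be tested and have no replicate check. The labels name the medium 6C, and their treatment text places the last harvest a day later than the label itself. All 4 libraries of 5C medium lack serum, so loss of serum and the added factors cannot be told apart against day 0. Part of the medium was replaced at intervals during the conversion, and the time from the last replacement to each harvest is not given in the sources used here.

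The expected counts, which are RSEM's estimates of the reads from each gene, summed to between 2253748 at day 2 and 3890334 at day 0. A normalized count is an expected count divided by the effective library size from edgeR's TMM method and multiplied by the geometric mean of these 5 sizes. Every log2 change is the log2 ratio of normalized counts after a pseudocount of 1, and its 95% counting interval is the exact Clopper-Pearson interval of the 2 counts compared. Intervals cover counting error only, and with 1 library per time point they hold no spread between cultures. The reads carried no molecular identifiers, so repeated reads of the same molecule count separately and the intervals may be too narrow. The day 2 library stood apart, because its 10 most abundant genes held 14.2% of the counts against 6.3% to 8.57% elsewhere, and the transcript Gm42418 alone held 4.79%. The values of the day 2 library are therefore given beside the changes that start or end there. In a bulk library, fewer cells that express a gene and less RNA of it per cell cannot be told apart.

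The 250 bases before the RefSeq start site (GRCm38.p6) are shown for 5 of the 10 genes, because the 5 genes took different courses. Sites of SRF, CREB and AP-1 may also lie outside these 250 bases, which were the only ones shown. Fos, Fosb and Atf3 had the largest changes between day 0 and day 14, Jun had a higher start and a smaller change, and Nr4a1 ended within counting error of where it began. Capitals mark the 5 bases TGACG, the shared core of a CREB site, or CGTCA where the core lies on the other strand, and each sequence runs 5′ to 3′ on the strand of its gene.
Fos (chr12:85473640-85473889, plus strand): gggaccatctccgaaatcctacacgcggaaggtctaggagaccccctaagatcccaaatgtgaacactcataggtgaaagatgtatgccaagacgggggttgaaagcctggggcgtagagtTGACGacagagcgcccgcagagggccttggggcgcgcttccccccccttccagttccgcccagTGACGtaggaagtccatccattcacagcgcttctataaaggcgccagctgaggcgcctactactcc
Fosb (chr7:19310046-19310295, minus strand): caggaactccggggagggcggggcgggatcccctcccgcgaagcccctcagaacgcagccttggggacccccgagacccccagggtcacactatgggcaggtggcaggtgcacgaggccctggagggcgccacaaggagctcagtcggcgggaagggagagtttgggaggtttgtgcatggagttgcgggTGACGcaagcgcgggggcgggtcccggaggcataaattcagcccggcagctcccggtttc
Atf3 (chr1:191183334-191183583, minus strand): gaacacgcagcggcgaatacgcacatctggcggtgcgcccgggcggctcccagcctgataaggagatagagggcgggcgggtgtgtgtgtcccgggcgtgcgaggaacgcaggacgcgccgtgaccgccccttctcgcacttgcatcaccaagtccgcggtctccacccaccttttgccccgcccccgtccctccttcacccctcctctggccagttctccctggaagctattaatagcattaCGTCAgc
Jun (chr4:95052223-95052472, minus strand): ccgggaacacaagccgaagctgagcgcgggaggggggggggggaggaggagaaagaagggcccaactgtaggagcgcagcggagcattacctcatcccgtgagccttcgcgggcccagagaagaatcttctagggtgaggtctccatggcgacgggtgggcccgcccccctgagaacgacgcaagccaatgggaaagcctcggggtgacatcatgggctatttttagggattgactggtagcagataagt
Nr4a1 (chr15:101266596-101266845, plus strand): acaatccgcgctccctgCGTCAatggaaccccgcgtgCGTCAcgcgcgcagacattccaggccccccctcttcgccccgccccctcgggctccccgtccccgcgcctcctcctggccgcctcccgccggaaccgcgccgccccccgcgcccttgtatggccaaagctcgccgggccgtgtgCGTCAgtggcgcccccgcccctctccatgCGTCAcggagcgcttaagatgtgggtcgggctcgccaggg

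The RefSeq promoter table held 7 of the 10 genes. Fosl1, Egr1 and Crem had no entry. The RefSeq starts used for Atf3 and Nr4a1 lie inside the spans that GENCODE gives these genes. TGACG was found, on either strand, in 6 of these 7 windows of 250 bases upstream, against 17.8% of all 32851 promoters in the table. The Fos window held the core at bases -129 to -125 and -66 to -62 from the start site, the Fosb window at -60 to -56, the Junb window at -106 to -102 and the Atf3 window at -7 to -3. Nr4a1 and Nr4a2 held 4 matches each, and Jun held none. The full palindrome TGACGTCA, which contains the core, was in 0 of the 7 windows, against 1.55% of all promoters, and the AP-1 letters TGANTCA were in 0 of 7, against 6.75%. The CArG box, to which SRF binds, was also in 0 of 7, against 1.47%. A match is a run of letters and not a measured site, and its absence says only that these letters are not in the window.

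On day 14, 8 of the 10 genes were over 2-fold above day 0 and 1, Fosl1, was over 2-fold below it. Over all 13346 genes kept, 24.5% were over 2-fold higher and 19.9% over 2-fold lower at that time. The genes with the largest changes were Fos, Atf3 and Fosb, at log2 changes of 5.08, 4.66 and 4.47, and Nr4a2, Jun, Junb, Egr1 and Crem were higher by 3.39, 2.84, 1.73, 1.06 and 1.03. Nr4a1 was the only one of the 10 genes within 2-fold of day 0. More than 4-fold above day 0 were 5 of the 10, against 11.7% of all genes kept, and more than 10-fold above it were 4 of the 10 (Fos, Fosb, Nr4a2 and Atf3), against 5.14%. The median log2 change of the 10 genes was 2.28, and that of all genes kept was 0.07. The 8 calls included Egr1 and Crem, both close to the threshold. Crem was 0.59 on the log2 scale with quantile normalization, and Egr1 was 0.78 after centring on genes of like length.

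The 10 genes together held 0.0912% of all expected counts at day 0, 0.0717% at day 2, 0.109% at day 5, 0.194% at day 10 and 0.569% at day 14. Their summed level was 483 TPM (transcripts per 1000000, a level per gene length) at day 0 and 4591 TPM at day 14. On the TPM scale the median of all genes was itself 0.78 higher in log2 at day 14 than at day 0, 1.09 higher on day 10, 0.61 higher on day 5 and 0.20 lower on day 2, and the median of the 10 genes was 3.02 higher on day 14.

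**Figure D1:**
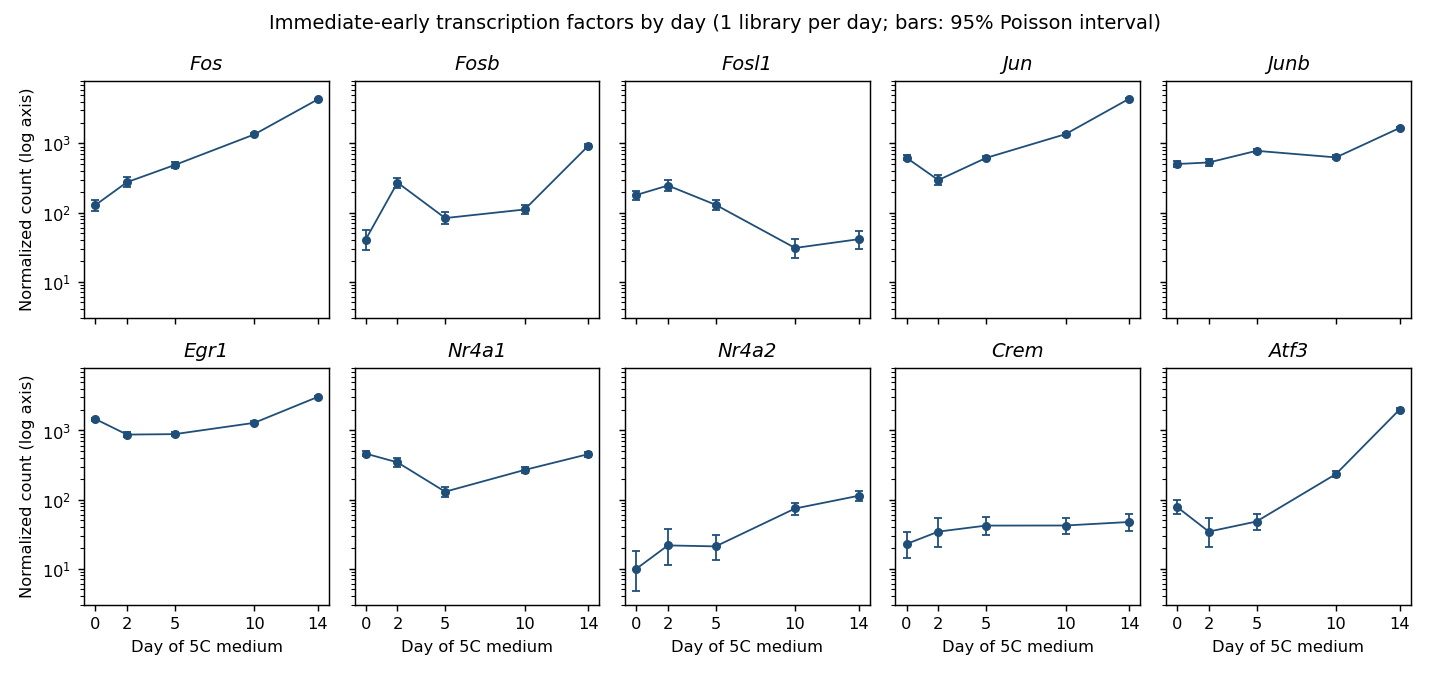
Normalized counts of the 10 genes (log axis) against the day of 5C medium, with 1 library per day as a point and the 95% Poisson interval of its count as a bar. Fos climbs from 127.7 to 4342, Jun and Atf3 dip on day 2 before they climb, Fosb has a peak of 271.4 at day 2, and Fosl1 ends at 41.12 after 179.1 at day 0.

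Fos, the founding member of the Fos family (ENSMUSG00000021250, GRCm38 chr12:85473890-85477273, plus strand), had 127.7 normalized counts at day 0, 275.0 at day 2, 487.4 at day 5, 1348 at day 10 and 4342 at day 14. It was higher in every library than in the one before it, and no neighbouring levels lay within counting error of each other. Its log2 change against day 0 was 1.10 (0.76 to 1.46) at day 2, 1.92 (1.65 to 2.22) at day 5, 3.39 (3.14 to 3.67) at day 10 and 5.08 (4.84 to 5.35) at day 14, which is 33.8-fold. By size of increase on day 14, Fos stood in place 167 of the 8273 genes that reached 100 expected counts in at least 1 library. Only Fos and Crem of the 10 genes were higher at each step from day 0 to day 14, against 3.96% of all genes kept, and the steps of Crem were within counting error.

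Fosb, which encodes a close relative of Fos and, by splicing, the stable protein that builds up in stimulated neurons (ENSMUSG00000003545, chr7:19302696-19310051, minus strand), took another course. Its normalized counts were 40.58 at day 0, 271.4 at day 2, 83.13 at day 5, 110.7 at day 10 and 921.6 at day 14. By normalized counts there were 2 high libraries, day 2 and day 14, with a trough on day 5 between them. On the TPM scale day 2, at 21.16 TPM on 150 expected counts, was not above day 10, at 23.35 TPM. Day 5 was at 12.76 TPM. The log2 change was 2.71 (2.23 to 3.28) at day 2, the largest of the 10 genes at that time, and 4.47 (4.06 to 4.99) at day 14. Between day 2 and day 5 the log2 difference was -1.69 (-2.09 to -1.33), and between day 10 and day 14 it was higher by 3.05 (2.81 to 3.31), or 8.26-fold.

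Fosl1, also called Fra-1, the member of the family that proliferating fibroblasts and invasive cells express (ENSMUSG00000024912, chr19:5447547-5455946, plus strand), was the only one of the 10 genes over 2-fold below day 0 on days 10 and 14. Normalized counts of Fosl1 were 179.1 at day 0, 246.0 at day 2, 129.5 at day 5, 30.71 at day 10 and 41.12 at day 14. The high libraries were days 0, 2 and 5 and the low ones days 10 and 14, which lay within counting error of each other. Its log2 change was 0.46 (0.13 to 0.79) at day 2, -0.46 (-0.79 to -0.15) at day 5, -2.51 (-3.06 to -2.06) at day 10 and -2.10 (-2.62 to -1.65) at day 14, which is 4.28-fold lower. With TPM values the change on day 5 was 0.23. The fall lay between days 5 and 10, at a log2 difference of -2.04 (-2.60 to -1.58). Reads of Ccdc85b, which overlaps Fosl1 on the other strand, cannot be told apart from those of Fosl1 where they overlap, because the library kit does not mark strand. Ccdc85b had 41 expected counts in its lowest library (day 10) and 123.46 in its highest (day 2).

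Jun, the partner of the Fos proteins in AP-1 (ENSMUSG00000052684, chr4:95049034-95052222, minus strand), had 619.5 normalized counts at day 0, 294.9 at day 2, 617.0 at day 5, 1363 at day 10 and 4433 at day 14. It was lowest on day 2, back at its day 0 level on day 5 within counting error, and highest on day 14. The log2 change was -1.07 (-1.33 to -0.82) at day 2, 1.14 (1.01 to 1.27) at day 10 and 2.84 (2.72 to 2.96) at day 14. The antisense gene Junos, which overlaps it, had between 2.25 and 4.4 expected counts in each library.

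Junb, a Jun family member that often counters Jun (ENSMUSG00000052837, chr8:84974484-84978718, minus strand), moved less. The normalized counts were 503.7 at day 0, 530.1 at day 2, 782.1 at day 5, 627.7 at day 10 and 1674 at day 14. Days 0 and 2 lay within counting error, and day 14 stood above the other 4 libraries. On day 14 the log2 change was 1.73 (1.59 to 1.88), of which 1.41 (1.30 to 1.53) lay between days 10 and 14. Prdx2, an overlapping gene on the other strand, was itself well expressed, at 1172 to 1686 expected counts, and had fewer of them on days 10 and 14 than on day 0, so reads from the overlap are uncertain for both genes.

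Egr1, a zinc finger factor and the most abundant of the 10 genes before the change of medium (ENSMUSG00000038418, chr18:34859823-34864984, plus strand), had 1467 normalized counts at day 0, 872.0 at day 2, 884.7 at day 5, 1289 at day 10 and 3059 at day 14. It was lower than on day 0 in 3 libraries and higher in 1, although on day 10 the direction turned with total counts, quantile normalization and TPM values, to as much as 0.99 on the log2 scale. The log2 change was -0.75 (-0.90 to -0.60) at day 2, -0.73 (-0.85 to -0.61) at day 5, -0.19 (-0.29 to -0.09) at day 10 and 1.06 (0.97 to 1.15) at day 14. The last step alone was 1.25 (1.16 to 1.33) on the log2 scale, more than the net change since day 0.

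Nr4a1, also called Nur77, an orphan nuclear receptor (ENSMUSG00000023034, chr15:101254269-101274795, plus strand), had 462.6 normalized counts at day 0, 345.5 at day 2, 129.9 at day 5, 268.5 at day 10 and 454.1 at day 14. It traced a trough with its lowest library on day 5, and days 0 and 14 lay within counting error of each other. On day 5 the log2 change was -1.82 (-2.11 to -1.57), and on day 14 it was -0.03 (-0.21 to 0.16). Its direction on day 14 depended on the scaling, between -0.17 and 0.84 over the alternatives, and turned with total counts, quantile normalization, TPM values and centred TPM values.

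Nr4a2, or Nurr1, the receptor of the same family that dopamine neurons need (ENSMUSG00000026826, chr2:57106830-57124003, minus strand), was low throughout. Its normalized counts were 9.90 at day 0, 21.71 at day 2, 21.0 at day 5, 74.27 at day 10 and 113.5 at day 14. The libraries of days 10 and 14 were high, and the other 3 could not be ordered beyond counting error. The log2 change was 1.06 (-0.20 to 2.50) at day 2 and 1.01 (-0.03 to 2.31) at day 5, with intervals that hold 0, and 2.79 (1.97 to 4.01) at day 10 and 3.39 (2.59 to 4.61) at day 14. The 10 expected counts at day 0 make its 10.5-fold change on day 14 the least precise of the large ones. Where Nr4a1 and Nr4a2 are set side by side on the scale of log2 changes, Nr4a2 was above day 0 at each of the 4 later time points, while Nr4a1 was below day 0 on days 2, 5 and 10, although on day 10 it was at 0.38 with TPM values, and within counting error of day 0 on day 14.

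Crem, the cAMP-responsive element modulator (ENSMUSG00000063889, chr18:3266048-3337748, minus strand), had 22.76 normalized counts at day 0, 34.37 at day 2, 42 at day 5, 42.13 at day 10 and 47.37 at day 14. Neighbouring libraries in this order did not differ beyond counting error. The log2 change on day 14 was 1.03 (0.33 to 1.83), on 23 expected counts against 53.

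Atf3, which the integrated stress response and nerve injury induce (ENSMUSG00000026628, chr1:191170296-191218039, minus strand), had the widest range of the 10 genes, 58.4-fold between its lowest and its highest library. Normalized counts of Atf3 were 78.18 at day 0, 34.37 at day 2, 48.13 at day 5, 234.2 at day 10 and 2007 at day 14. Days 2 and 5 were low and within counting error of each other, day 10 stood above day 0, and day 14 stood far above all others. Against day 0 the log2 change was -1.16 (-1.99 to -0.45) at day 2, 1.57 (1.22 to 1.96) at day 10 and 4.66 (4.36 to 5.02) at day 14, or 25.4-fold. It was higher by 2.26 (1.87 to 2.72) on the log2 scale between days 5 and 10 and by a further 3.09 (2.93 to 3.27) between days 10 and 14.

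**Figure D2:**
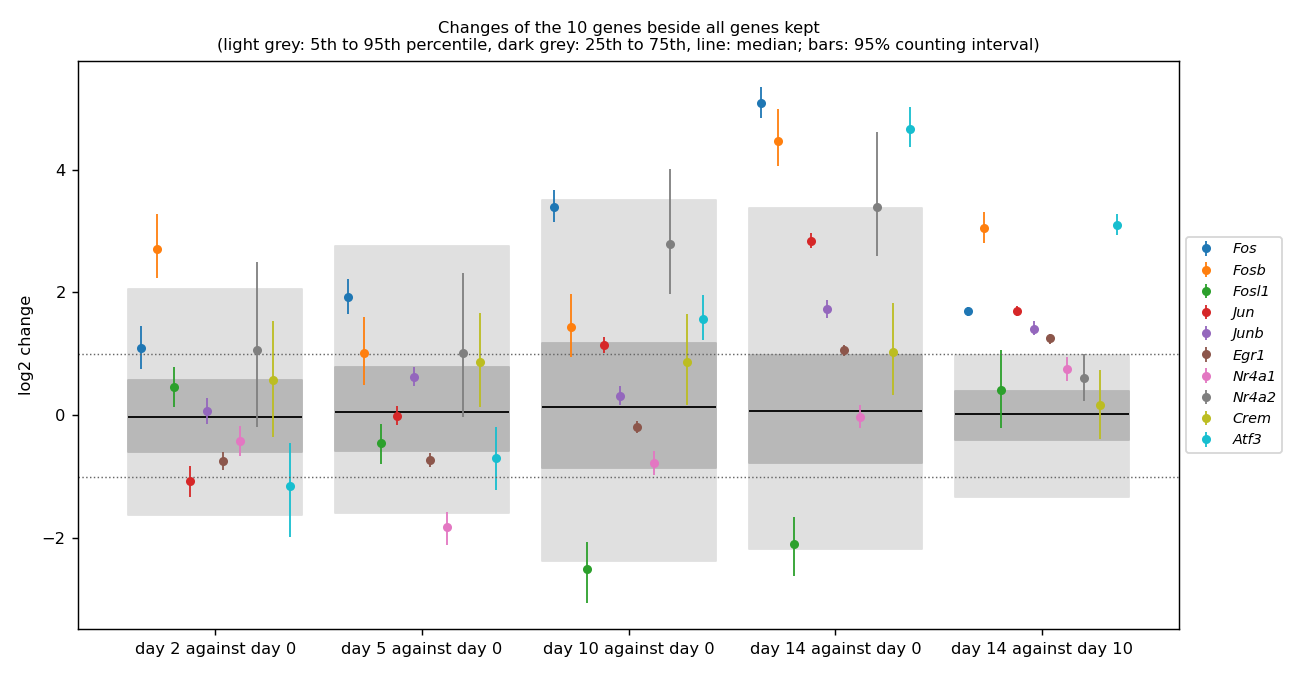
The log2 change (vertical axis) of each of the 10 genes against day 0 and in the last step, with its 95% counting interval, beside the 5th to 95th and 25th to 75th percentile of all 13346 genes kept (light and dark grey) and their median (line). In the last step Atf3 and Fosb, at 3.09 and 3.05, lie far above the 95th percentile of 0.979, and Fosl1 is the only one of the 10 genes below a change of -2 on days 10 and 14.

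The early time points looked different from the late ones. On day 2, 3 of the 10 genes (Fos, Fosb and Nr4a2) were over 2-fold above day 0, against 15.2% of all genes kept, and 2 (Jun and Atf3) were over 2-fold below it, against 13.1%. Jun, Egr1 and Atf3 had their lowest value on day 2, a share of 3 in 10 where 28.2% of all genes kept were lowest on that day. Jun and Atf3 were also the 2 genes that were over 2-fold below day 0 at day 2 and over 2-fold above it on day 14, against 1.98% of all genes. The day 2 library held the fewest counts, and these lower values rest on it, with 163 expected counts for Jun and 19 for Atf3. Leaving Gm42418 and Lars2 out of the library sizes changed no direction of the 10 genes on day 2. Centring on genes of like length, or quantile normalization, left 1 gene over 2-fold lower on day 2.

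On day 5, the same 3 genes (Fos, Fosb and Nr4a2) were over 2-fold above day 0, against 20.2% of all genes, and 1 (Nr4a1) was over 2-fold below it, against 13.6%. Fosb and Nr4a2 were at log2 changes of 1.02 and 1.01, and with DESeq2's size factors only Fos stayed past the threshold. From day 2 to day 5, 1 of the 10 genes (Jun) was over 2-fold higher, against 19.0% of all genes, and 2 (Fosb and Nr4a1) were over 2-fold lower, against 12.5%. The counts in that step depended on the scaling, since 6 genes were over 2-fold higher and 0 lower with TPM values. On the TPM scale the median of all genes kept was itself 0.86 higher in log2 in that step, and that of the 10 genes 1.13 higher. The share of all genes over 2-fold higher with TPM values is not given here. On day 10, 5 of the 10 (Fos, Fosb, Jun, Nr4a2 and Atf3) were over 2-fold above day 0, against 28.7%, and 1 (Fosl1) was over 2-fold below it, against 22.3%. From day 5 to day 10, 5 genes (Fos, Jun, Nr4a1, Nr4a2 and Atf3) were over 2-fold higher, against 12.8% of all genes, and 1 (Fosl1) was over 2-fold lower, against 9.5%.

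In the last step, from day 10 to day 14, all 10 genes were higher, except that Crem was lower with TPM values or after centring on genes of like length, and 51.6% of all genes kept were higher by any amount. Over 2-fold higher were 6 of the 10 (Fos, Fosb, Jun, Junb, Egr1 and Atf3), against 4.73% of all genes, and 0 were over 2-fold lower, against 8.33%. The number over 2-fold higher was within 1.5 times of this under every scaling tried. Atf3 and Fosb stood in places 12 and 13 from the top among the 8273 genes that reached 100 expected counts, Jun and Fos in places 82 and 85, and Junb and Egr1 in places 115 and 151. The intervals of Fosl1 (0.41, -0.21 to 1.06) and Crem (0.17, -0.39 to 0.73) held 0 on the log2 scale. The median log2 change of the 10 genes in this step was 1.33, against 0.02 for all genes kept. Day 14 was the highest library for 8 of the 10 genes, against 17.6% of all genes. Higher at each step from day 2 to day 14 were 5 of the 10 (Fos, Jun, Egr1, Crem and Atf3), against 10.4%. For Egr1, Crem and Atf3 the step from day 2 to day 5 was within counting error, as were the later steps of Crem.

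Compared per gene length, the order of the 10 genes changed. On day 0 the highest level was that of Egr1, at 167.89 TPM, which was 34.7% of the summed TPM of the 10 genes, followed by Junb at 96.77 TPM and Jun at 68.38 TPM. Fos, at 21.84 TPM, was the sixth and Nr4a2, at 1.04 TPM, the lowest. By day 14 Fos was the highest at 1428.74 TPM, 31.1% of the sum, followed by Jun at 898.34 TPM, Atf3 at 685.29 TPM, Egr1 at 645.19 TPM and Junb at 589.16 TPM. The lowest level on day 14 was that of Fosl1, at 15.61 TPM, below Nr4a2 at 21.22 TPM and Crem at 30.16 TPM.

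The make-up of AP-1 transcripts was taken from the TPM of the 4 Fos genes (Fosl2 included) and the 3 Jun genes (Jund included). Fos held 25% of the summed TPM of the Fos genes on day 0, 33.1% at day 2, 61.6% at day 5, 84.2% at day 10 and 83.8% at day 14. Fosl1 held 42.6%, 36.8%, 18.6%, 2.08% and 0.916% in the same order, so the most abundant Fos gene was Fosl1 on days 0 and 2 and Fos from day 5 on. Fosb held its largest share, 18.3%, on day 2, and 9.31% at day 14. Among the Jun genes, Jun held 27.0% at day 0, 13.9% at day 2, 25.9% at day 5, 50.4% at day 10 and 55.1% at day 14. Junb was the most abundant Jun gene on days 0, 2 and 5, at 38.3%, 43.7% and 57.0%, and Jund held 34.7% at day 0 and 8.76% at day 14. The summed TPM of the Fos genes was 0.345 of that of the Jun genes on day 0, 0.595 at day 2, 0.548 at day 5, 1.02 at day 10 and 1.05 at day 14. These are shares of RNA, and protein was not measured in these libraries.

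**Figure D3:**
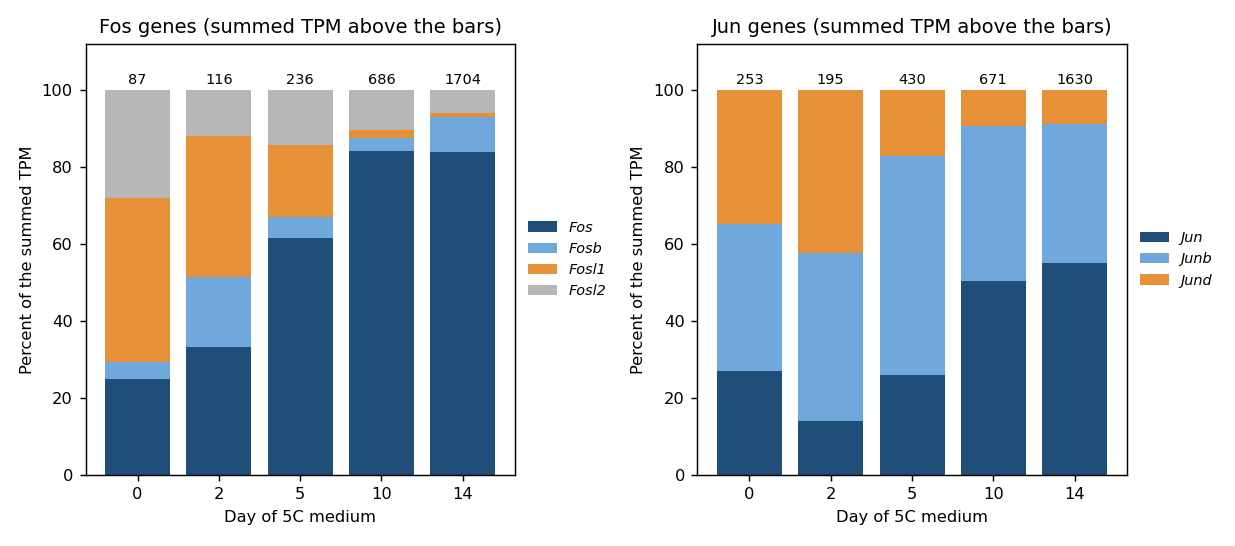
Percent of the summed TPM held by each Fos gene (left) and each Jun gene (right) against the day of 5C medium, as stacked bars with 1 library per day and the summed TPM above each bar. Fos goes from 25% to 83.8% of the Fos genes and Fosl1 from 42.6% to 0.916%, and Jun goes from 27.0% to 55.1% of the Jun genes.

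Of the other 8 AP-1 genes kept (of 11 listed), 2 were over 2-fold above day 0 at day 14 and 1 below it. These counts were near the shares of all genes kept, 24.5% higher and 19.9% lower. Fosl2, the fourth Fos gene, had 407.8 normalized counts at day 0 and 920.4 at day 14, a log2 change of 1.17 (1.01 to 1.34). Maff, a small Maf protein that pairs with AP-1 members, went from 147.2 to 47.37 normalized counts, at -1.62 (-2.12 to -1.18) on the log2 scale. Atf7 was at 1.11 (0.79 to 1.46), but at -0.15 with TPM values centred on the median of all genes. Jund, chosen after its values were seen, was lowest on day 10, at 225.6 normalized counts, and back at 635.9 at day 14 from 717.4 at day 0.

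Of the other Egr and Nr4a genes and their corepressors, 5 of 6 were kept, with 3 over 2-fold higher on day 14 and 0 lower. The shares of all genes kept were 24.5% higher and 19.9% lower. Egr2, which directs myelination in Schwann cells, had 22.76 normalized counts at day 0, 12.66 at day 2, 14.0 at day 5, 58.56 at day 10 and 161.8 at day 14, a log2 change of 2.78 (2.2 to 3.52). Egr3 and Nr4a3, the other 2 counted, were at 23.24 and 24.13 normalized counts at day 14. Nab2, a corepressor of the Egr proteins, was at -0.82 (-1.07 to -0.58), a direction that turned with TPM values, and Nab1 was at -0.03. Among 10 CREB family genes and coactivators, 2 were over 2-fold higher and 2 lower on day 14, near the shares of all genes kept. Crtc1, a CREB coactivator, was higher by 1.75 (1.22 to 2.37), and Creb3 and Atf4, which act in the secretory and stress responses, were at -1.54 (-1.75 to -1.34) and -1.13 (-1.25 to -1.01).

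The 14 other immediate-early regulators of transcription and RNA split on day 14, with 5 over 2-fold above day 0 and 3 below it. Over all genes kept, 24.5% were over 2-fold higher and 19.9% lower on that day. The median log2 change of that list was -0.38, against 0.07 for all genes kept. In the last step, though, 7 of the 14 were over 2-fold higher and 0 lower, with a median log2 change of 0.98. The shares of all genes kept in that step were 4.73% higher and 8.33% lower. Zfp36, which degrades AU-rich messenger RNAs, had 177.1 normalized counts at day 0, 132.1 at day 2, 378.0 at day 5, 618.4 at day 10 and 1733 at day 14, and its log2 change on day 14 was 3.28 (3.07 to 3.52). Its relative Zfp36l1 was at 2.82 (2.59 to 3.08), nearly all of it before day 10. Ier5, a heat shock factor regulator, was at -1.90 (-2.11 to -1.70) at day 14, although it too was higher in the last step, by 1.13 (0.84 to 1.45). Btg2, Ier2 and Npas4, chosen after their values were seen, were higher in the last step by 1.73 (1.58 to 1.90), 1.64 (1.5 to 1.78) and 3.57 (2.52 to 5.90) on the log2 scale. Npas4, which neurons induce on depolarization, had 50 expected counts at day 14 and 0 to 8 in the other libraries.

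The 25 immediate-early effector genes kept (of 27 listed) had 6 over 2-fold above day 0 and 10 below it on day 14, with a median log2 change of -0.65. Between days 10 and 14, 7 were over 2-fold higher and 2 lower. The shares of all genes kept were 24.5% higher and 19.9% lower on day 14, and 4.73% and 8.33% in the last step. Ccn2, or connective tissue growth factor, had 5009 normalized counts at day 0, 428.8 at day 2 and 156.9 at day 14, a log2 change of -4.99 (-5.22 to -4.78). Ptgs2, which makes prostaglandins, was at -3.66 (-4.27 to -3.18), and Rgs2, a brake on G protein signals, was higher by 3.58 (2.94 to 4.46). Dusp1, the phosphatase that ends MAP kinase signals and which was chosen after its values were seen, had 299.9 normalized counts at day 0, 122.5 at day 5, 146.4 at day 10 and 538.1 at day 14.

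Upstream of the 10 genes, the 6 transcripts of SRF, its ternary complex factors and its MRTF coactivators had 0 over 2-fold higher and 1 over 2-fold lower on day 14. Srf was at -0.90 and Mrtfa at -1.07 on the log2 scale, and Mrtfb at 0.61. From day 10 to day 14, 0 were over 2-fold higher and 2 (Elk1 and Elk4) lower. Of 13 kinases of the ERK and stress cascades, 1 (Mapk9) was over 2-fold higher and 2 (Hras and Map2k2) were lower on day 14, and 0 passed 2-fold in either direction in the last step. Over all genes kept, 24.5% were over 2-fold higher and 19.9% lower on day 14, and 4.73% and 8.33% in the last step. Transcript levels do not show the activity of these kinases and factors, which was not measured in these libraries.

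Downstream, 10 genes known as AP-1 targets had 4 over 2-fold higher and 5 over 2-fold lower on day 14. The shares of all genes kept were 24.5% higher and 19.9% lower. Mmp3, the stromelysin that remodels matrix, had 17.75 normalized counts at day 0, 3025 at day 2, 6979 at day 5, 2109 at day 10 and 1870 at day 14. It was highest on day 5, when Fos was at 487.4 normalized counts, and below that level on day 14, when Fos was at 4342. Mmp13, a collagenase, was also highest before day 14, at 742.5 normalized counts at day 10. Among 8 stress genes that often accompany Atf3, 0 were over 2-fold above day 0 at day 14 and 6 were below it, with a median log2 change of -1.91. Ddit3, the CHOP transcription factor, went from 1618 to 168.0 normalized counts, at -3.26 (-3.49 to -3.05), while Atf3 went the other way. In the last step 2 of the 8 (Chac1 and Ppp1r15a) were over 2-fold higher and 0 lower, against 4.73% and 8.33% of all genes kept.

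**Figure D4:**
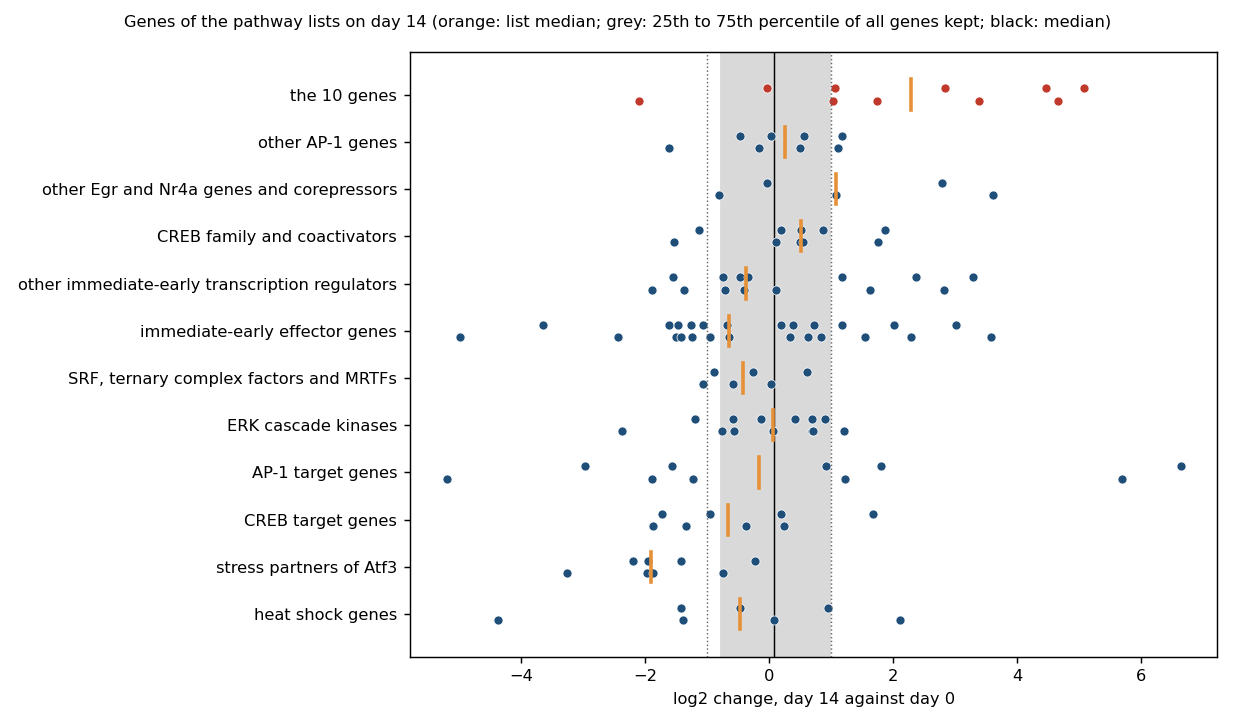
The log2 change on day 14 against day 0 (horizontal axis) of each gene kept, as a point, in the 10 genes (red) and in 11 pathway lists (blue), with the list median in orange, the median of all genes as a black line and their 25th to 75th percentile in grey. The 10 genes have the highest median, 2.28, while the stress partners of Atf3 have the lowest, -1.91.

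By the root mean square distance between log2 profiles over the 5 libraries, each centred on its own mean, the genes most like Fos among the 8273 were Tubb4a (0.20), Nrcam (0.26) and Nkd2 (0.27). Tubb4a, a neuronal and glial tubulin, went from 30.78 to 793.5 normalized counts between day 0 and day 14. The genes most like Egr1 were Shb (0.07), Pnpla2 (0.21) and Sphk1 (0.21). The genes nearest to Atf3 were less close, with Dok4 at 0.53, Klhl30 at 0.57 and Fam19a5 at 0.57. Among the 10 genes themselves the closest profiles were those of Egr1 and Junb (0.44) and the farthest those of Atf3 and Fosl1 (3.12). These distances describe the same 5 libraries, so all profiles share their depths and scaling.

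The markers of the cells in the culture moved over the same days. The 8 fibroblast markers were all kept, and their summed level was 12103 TPM in its lowest library (day 5) and 23589.5 TPM at day 14, of which Vim held 15668 TPM. They went both ways, with 2 (Dcn and Pdgfra) over 2-fold above day 0 and 2 (S100a4 and Thy1) over 2-fold below it on day 14. Over all genes kept, 24.5% were over 2-fold higher and 19.9% lower on that day. The 8 macrophage markers summed to 57.3 TPM at day 0, 1468 TPM at day 5 and 602 TPM at day 14. Lyz2 alone held 1252 TPM of the day 5 sum, and Adgre1, Ptprc and Cd14 were highest on day 10 and Itgam on day 2. Of the 6 Schwann cell and neural crest markers, all were over 2-fold above day 0 at day 14, and their summed level went from 11.2 TPM at day 0 to 1738 TPM at day 10 and 1794 TPM at day 14. The 4 adipocyte markers went from 47.4 TPM to 1946 TPM, of which Fabp4 held 1739 TPM, and the 4 astrocyte markers from 3.7 TPM to 81.1 TPM. The 6 neuron markers summed to 19.6 TPM at day 0 and 63.3 TPM at day 14, with 3 of the 6 kept. Tubb3 went from 4.19 to 55.75 TPM and Map2 from 15.33 to 5.62 TPM, while Syt1 and Dcx were listed at 0 on day 14 and Rbfox3 in all 5 libraries. Endothelial, skeletal muscle and epithelial markers, with 2 of 4 kept in each list, summed to 0.9, 11.2 and 5.6 TPM at day 14 against 14.3, 212.5 and 9.3 TPM at day 0. The part of these cell types in the levels of the 10 genes was not tested. In the last step, in which 6 of the 10 genes were over 2-fold higher, the macrophage list had 0 over 2-fold higher and 2 lower. The Schwann cell list had 0 and 1, and the fibroblast and adipocyte lists had 1 higher and 0 lower each. The shares of all genes kept in that step were 4.73% higher and 8.33% lower.

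**Figure D5:**
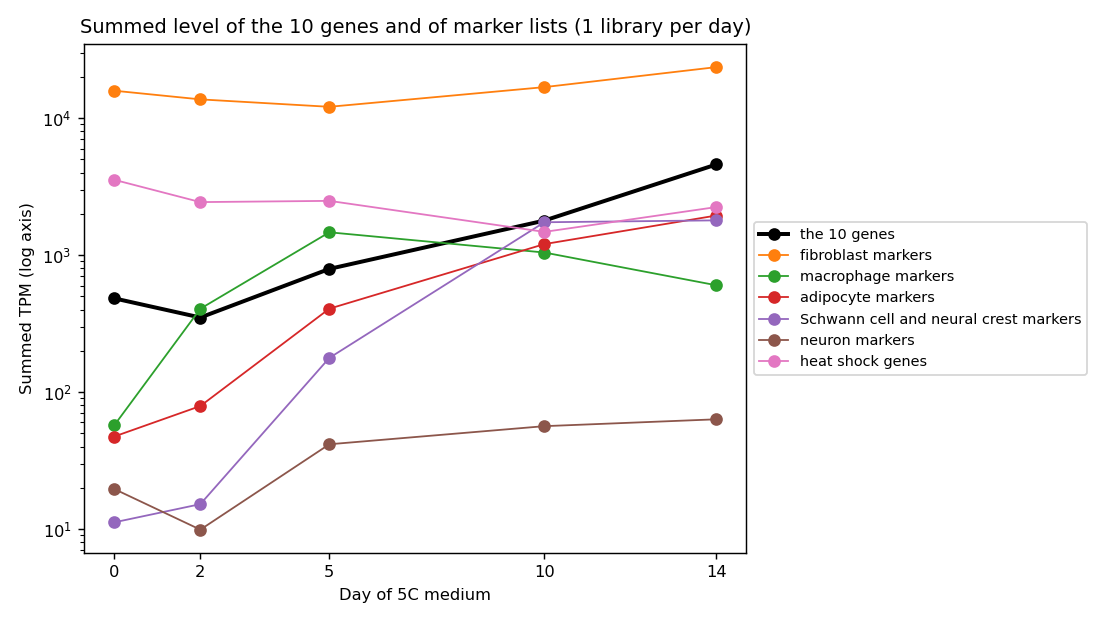
Summed TPM (log axis) of the 10 genes, of 5 marker lists and of the heat shock genes against the day of 5C medium, with 1 library per day. The 10 genes go from 483 TPM at day 0 to 4591 TPM at day 14, while the Schwann cell and neural crest markers are nearly level between days 10 and 14, at 1738 and 1794 TPM, and the macrophage markers go from 1045 to 602 TPM.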

How the data were processed

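The 5 libraries, 1 for each day, were assigned by their labels to MEFs in serum (day 0) or to day 2, 5, 10 or 14 in 5C medium. The authors deposited RSEM expected counts per gene, which are not scaled for library size. They were used for all normalized counts and log2 changes. TPM values, which the authors deposited beside them and which RSEM scales by gene length to 1000000 per library, were used to compare levels between genes and as an alternative. FPKM values, also deposited by the authors, were used for no result. The submitters' processing notes name Bowtie, RSEM and the build mm10, and versions are not given in the sources used here.

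Expected counts were rounded for TMM factors (edgeR 4.0.16, R 4.3.3). Symbols of 27247 of 27729 identifiers came from GENCODE M21 (GRCm38). Genes with 10 or more expected counts in at least 1 library were kept. A floor of 3 counts stands for 0.771 to 1.33 counts per 1000000, by library. Levels carry exact Poisson intervals and changes exact Clopper-Pearson intervals (95%), for counting error only. A change was called at 2-fold. The genes named are the 10 genes and, from each list, the 3 with the largest change on day 14 among genes with 100 or more expected counts, with overlapping genes and the 3 nearest profiles to Fos, Egr1 and Atf3. Genes named outside this rule, to list a count of 5 or fewer or where the text says so, were chosen after their values were seen. Genes named outside this rule, to list a count of 5 or fewer or where the text says so, were chosen after their values were seen. The 10 genes and the lists were chosen with earlier results of these data known. Rps6ka1 and Rps6ka3 were not analysed here. 1 gene that the rule names is not reported here. Promoters were searched on both strands. The computations were tested on simulated data. Alternatives were DESeq2 1.42.0 size factors, total counts, quantile normalization, TPM, library sizes without Gm42418 and Lars2, centring by length, other pseudocounts, filters and thresholds. Intervals came from scipy 1.17.1 under Python 3.11.15, tables from pandas 2.3.3 and numpy 2.4.6, and plots from matplotlib 3.10.9.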

Additional observations from a re-analysis of the deposited data

How the results depend on the processing

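With 1 library per time point, no library could be left out as a replicate. No paired analysis was possible because no time point has a second library. Of 40 changes of the 10 genes against day 0, 24 passed 2-fold, and all 24 kept their direction under every one of the 10 other scalings and pseudocounts that gave them a value (TMM without the day 2 library gives none for day 2), 2 of them (TPM centred on the median of all genes, and TMM without the day 2 library) added after the data had been seen. These 24 were picked for their size in the main scaling of the same libraries, so a reversal was unlikely and their stability is no independent support. Among the changes within 2-fold, some turned direction under at least 1 other scaling. They were Junb on day 2, Fosl1, Jun and Atf3 on day 5, Egr1 and Nr4a1 on day 10, and Nr4a1 on day 14. On day 14 the log2 change of Fos lay between 5.03 and 5.97, that of Atf3 between 4.60 and 5.52 and that of Fosl1 between -2.17 and -1.20.

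Numbers past the threshold moved mostly on days 2 and 5. Over 2-fold above day 0 on day 2 were 1 with TPM and 1 with centred TPM, in place of 3. On day 5 they were 1 with DESeq2's size factors, quantile normalization, centred TPM or a pseudocount of 5, and 5 with total counts, TPM or a 1.5-fold threshold, in place of 3. Over 2-fold below day 0 on day 2 was 1 with quantile normalization or centring by length, in place of 2. A 4-fold threshold gave 1, 0, 2 and 5 higher genes on days 2, 5, 10 and 14, and 0 lower on days 2 and 5. A 1.5-fold threshold gave 3 lower on day 5 and 2 on day 10, in place of 1. Of all genes kept, 11.7% were over 4-fold above day 0 on day 14. Shares of all genes for the other counts at 4-fold and 1.5-fold are not given here, so those counts have no comparison. From day 2 to day 5, the number over 2-fold higher was 3 with total counts, 2 with quantile normalization, centred TPM or a 1.5-fold threshold, 6 with TPM and 0 with centring by length or a 4-fold threshold, in place of 1, and the number lower was 1 with total counts and 0 with TPM or a 4-fold threshold, in place of 2. These thresholds were applied to the steps after the data had been seen. With TPM values the median log2 change of all genes kept from day 2 to day 5 was itself 0.86. The 4-fold threshold left 1 gene higher from day 5 to day 10 and 2 from day 10 to day 14. The cause of these shifts was not tested. Depth limits Nr4a2, with 10 expected counts on day 0, and Crem, with 19 to 59.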

Other observations

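Genes downstream of CREB and chaperone genes were counted in the same way. Of all genes kept, 24.5% were over 2-fold above day 0 on day 14 and 19.9% over 2-fold below it. In the last step these shares were 4.73% higher and 8.33% lower. Of 8 CREB target genes kept (of 10 listed), 1 was over 2-fold above day 0 at day 14 and 3 were below it, with a median log2 change of -0.67, and in the last step 0 were over 2-fold higher and 2 lower. Bdnf, the neurotrophin that active neurons make, had 334.3 normalized counts at day 0, 50.7 at day 10 and 99.22 at day 14, a log2 change of -1.74 (-2.08 to -1.44) against day 0. Per1, a clock gene, was at -1.35, and Sst was at 0 in all 5 libraries. Of 7 heat shock genes, 1 was over 2-fold higher and 3 lower on day 14, and 2 were higher and 0 lower in the last step. Hspb1, a small chaperone, went from 1282 to 60.78 normalized counts, at -4.38 (-4.77 to -4.05), and Hspa8 and Hsp90aa1 were at -1.42 and -1.39. Hspa1a, chosen after its values were seen, was at 47.8 normalized counts at day 14 and 10.29 at day 0.

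RSEM reports for each library a gene length weighted by the isoforms it assigned reads to. For Crem, whose promoters and splicing make activators and repressors of different length, this length was 1216.5 bases at day 0, 1321.12 at day 2, 1260.7 at day 5, 1055.49 at day 10 and 1025.98 at day 14. For Fos it lay between 1850.86 bases at day 10 and 2108 bases at day 2, and for Atf3 it was 1984 bases in 4 libraries and 1896.62 bases at day 14. With 19 to 59 expected counts of Crem per library, the isoforms behind these lengths could not be resolved here.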
